A study of Mus musculus with 21 samples.

Results

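MPP2 and MPP3 progenitors of Phf6 knockout (KO) mice were compared with each other, gene by gene. The comparison rests on the 4 KO MPP2 and 4 KO MPP3 libraries, 8 of the 21 libraries of the series, chosen by genotype and sorted population as the sample labels give them. All were sorted as 100 to 200 cells from the bone marrow of C57BL/6 mice at 12 weeks of age, by the stem and progenitor markers Sca-1 and cKit, a lineage mix, and the SLAM proteins CD150 and CD48. Both groups carry the Phf6 deletion, so their difference alone cannot separate an effect of Phf6 from that of the population. The 4 WT MPP2 and 4 WT MPP3 libraries, from the same strain and age, were used for the same contrast without the deletion. The KO allele is not given in the sources used here, nor is whether it is limited to blood cells. A library's last number is its mouse: KO MPP2 1 and KO MPP3 1 come from KO mouse 1, as far as consecutive numbers in the sample titles show.

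Phf6 is a chromatin-associated zinc finger protein, and its gene is mutated in human T-cell and myeloid leukaemias. Multipotent progenitors (MPP) lie between haematopoietic stem cells and the committed lineages and are told apart by surface proteins. MPP2 carry both CD150 and CD48 and are biased towards megakaryocytes, the makers of platelets, and red cells. MPP3 carry CD48 without CD150 and are biased towards granulocytes and monocytes. A CD48-positive, CD150-negative gate with no stain for Flt3 also takes in the Flt3-high progenitors usually called MPP4, which are biased towards lymphocytes.

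The unit of level is CPM, a count scaled to its TMM-adjusted library size, shown as mean ± SD (n = 4 for each group) or for mice 1 to 4 in turn. A fold change is the log2 ratio of KO MPP2 over KO MPP3 ± SE from edgeR's quasi-likelihood fit, with a Benjamini-Hochberg adjusted p over 21100 genes and a threshold of 0.05. Total counts ran from 25094127 to 31611366 in KO MPP2 and from 18892723 to 29924111 in KO MPP3, and a count of 3 stood for 0.104 to 0.191 CPM. Intervals and such floors cover counting error only.

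Some libraries stood apart. Immunoglobulin genes, the products of plasma cells and B cells, took 48% of the counts of KO MPP2 1 and 26.8% of those of KO MPP3 1, and 2.78% or less of the other 6. Ribosomal RNA, that of mitochondria included, took 21.9% of KO MPP3 2 and at most 2.17% of the rest. Mitochondrial genes, whose ribosomal RNA is in both shares, took 12.8% of KO MPP3 2 and at most 3.61% of the rest. Neutrophil granule genes took 0.801% of KO MPP2 1 and at most 0.0116% of the rest. KO mouse 2 was male by Xist and Ddx3y counts. The titles of mice 1 and 2 carry numbers from 55 to 63 and those of mice 3 and 4 from 165 to 211, and the groups of mice are called the earlier and the later numbers below. All 3 rich libraries and the male mouse fall among the earlier numbers, so these features cannot be told apart from the title numbers. In this bulk RNA, fewer cells of a type and less RNA per cell cannot be told apart either.

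**Figure D1:**
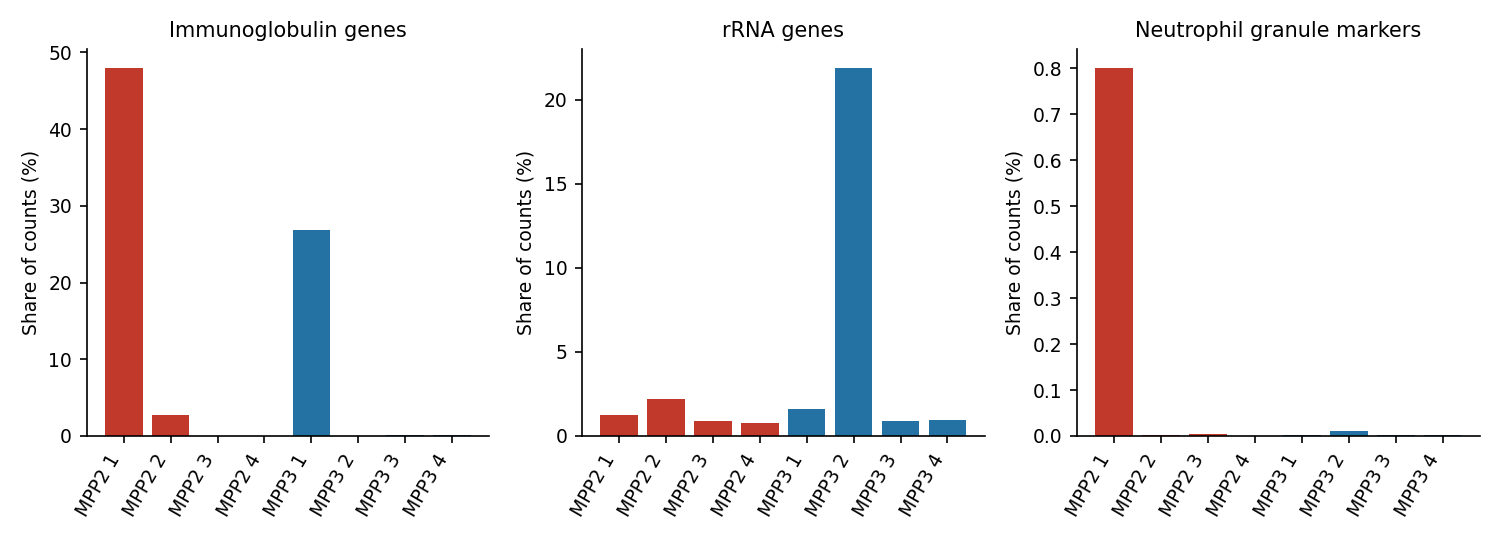
Share of all counts (%, y axes) taken by immunoglobulin genes, ribosomal RNA genes and 15 neutrophil granule markers in each of the 8 KO libraries (x axes; red, KO MPP2; blue, KO MPP3; 1 bar per library). Immunoglobulin stands at 48% in KO MPP2 1 and 26.8% in KO MPP3 1, and ribosomal RNA at 21.9% in KO MPP3 2.

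Phf6 itself (ENSMUSG00000025626.16, chromosome X, 52912266 to 52956943, plus strand, mm10) had low counts in all 8 libraries. Its level was 12.3, 11.7, 11.3 and 11.9 CPM in KO MPP2 and 8.12, 2.45, 12.1 and 13.3 CPM in KO MPP3, so the groups overlapped (log2 0.38 ± 0.44, edgeR adjusted p = 0.727). Sva, a secreted protein gene, was at 0.904 to 7.28 CPM in KO MPP2 and 4.09 to 10.5 CPM in KO MPP3 (log2 -0.63 ± 0.75, edgeR adjusted p = 0.74).

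The sort genes were read as a check of the labels. Slamf1, which encodes CD150 and was used for the sort, was at 37, 17.7, 59.6 and 78.1 CPM in KO MPP2 and at 0.869, 0, 0 and 0.498 CPM in KO MPP3, as the gate sets it. Cd48 was present in both, at 165 to 538 CPM in KO MPP2 and 206 to 670 CPM in KO MPP3. Kit ran from 170 to 294 CPM against 134 to 509 CPM, with KO MPP3 2 the highest. Ly6a, which encodes Sca-1, fell from 1429 CPM in KO MPP2 1 to 158, 17.5 and 5.74 CPM in the other KO MPP2 libraries, and was at 700, 190, 81 and 56.2 CPM in KO MPP3. The lowest Sca-1 transcript levels thus lay in the later numbers, in both populations.

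Flt3, the receptor that marks lymphoid-primed progenitors and was not stained, was at 137, 315, 14.7 and 4.81 CPM in KO MPP2 and at 899, 645, 747 and 722 CPM in KO MPP3. The groups did not overlap, the KO MPP2 libraries spread widely, and the difference missed the threshold in edgeR (log2 -2.68 ± 1.12, adjusted p = 0.286) and DESeq2 (adjusted p = 0.0996) and passed it in limma voom (adjusted p = 0.0155). Cd34, a surface protein of early progenitors, was at 505, 699, 171 and 123 CPM in KO MPP2 and 1055, 737, 1211 and 1310 CPM in KO MPP3 (log2 -1.53 ± 0.51, edgeR adjusted p = 0.181); it passed in DESeq2 (adjusted p = 0.0382) and limma voom (adjusted p = 0.00832). For both genes KO MPP2 3 and 4 were the lowest libraries.

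Across all genes, 187 of 21100 differed between KO MPP2 and KO MPP3 (0.886%). Of these, 111 were higher in KO MPP2 (0.526%), among them genes of megakaryocytes, platelets and early red cells, and 76 were lower (0.360%), among them lymphoid genes and transcription regulators. Protein-coding genes made up 178 of the 187. The 4 libraries of one group lay wholly above the 4 of the other for 182 of them; over all genes tested this held for 3.59% with KO MPP2 above and 3.50% with KO MPP2 below. Within the mice, 110 of the 111 were higher in MPP2 in 4 of 4 mice and 74 of the 76 were lower in 4 of 4. Their choice by this same contrast largely fixes these counts. Over all 21100 genes tested, 2498 were higher in MPP2 in 4 of 4 mice and 2869 were higher in none. The median fold change was 1.99 for the higher and -1.51 for the lower genes on the log2 scale, beside 0.02 over all genes tested.

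The number of calls moved with the libraries and with the fit. It was 11 higher and 1 lower without KO MPP2 3, 14 and 2 without KO MPP2 4, 57 and 32 without KO MPP3 1, 69 and 44 without KO MPP3 2, and 25 and 14 without KO MPP3 4. With the mouse as a block in the fit of all libraries it was 191 higher and 211 lower (1.91% of genes), of which 163 were among the 187. With the block and only these 8 libraries it was 1 higher and 0 lower. Without KO MPP2 1, KO MPP3 1 and KO MPP3 2, those rich in immunoglobulin or ribosomal RNA, 32 were higher and 26 lower, 25 of them among the 187. Of the 187, those tested in each of these fits kept their direction there (183 in the block with 8 libraries, 187 in the others), which is partly fixed by their choice.

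There were 11 genes that passed in each of the 8 fits that left out 1 library: Grb10, Apoe, Tgfbr3, Zg16, Ptgs1, Aqp9, Itga2b, Trib2, Slamf1 and Cavin2, higher in KO MPP2, and Slc27a1, lower. Slamf1 encodes CD150, by which the populations were sorted. Without all 3 rich libraries, at least Zg16, Slamf1, Cavin2 and Trib2 missed the threshold (edgeR adjusted p from 0.0577 for Slamf1 to 0.0714 for Trib2). Apoe (0.0282) and Itga2b (0.0394) passed there. Apoe (ENSMUSG00000002985.16, chromosome 7, 19696109 to 19699188, minus strand, mm10), the lipid carrier apolipoprotein E, was at 739, 664, 1584 and 2052 CPM in KO MPP2 and 59.5, 23.6, 52.4 and 55.6 CPM in KO MPP3. Its lowest KO MPP2 library lay far above its highest KO MPP3 library, and the means were 1260 ± 673 and 47.8 ± 16.4 CPM (log2 4.72 ± 0.57, edgeR adjusted p = 0.00106). It was the 1 gene called with the mouse as a block in the 8 libraries alone.

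Grb10, an adaptor that binds growth factor receptors, had the smallest p. It was at 37.3, 28.6, 42 and 41.3 CPM in KO MPP2 and 6.69, 9.67, 5.34 and 5.79 CPM in KO MPP3, with little spread in either group (log2 2.44 ± 0.27, edgeR adjusted p = 0.000646). Tgfbr3, a TGF-beta co-receptor, was at 62, 60.9, 73.1 and 101 CPM against 7.51, 12.1, 3.88 and 1.96 CPM (log2 3.55 ± 0.45, edgeR adjusted p = 0.00119). Ptgs1, the cyclooxygenase from which platelets make thromboxane, was at 35.8 to 77.7 CPM against 11.1 to 15.4 CPM (log2 2.03 ± 0.31). Aqp9, a water and glycerol channel, was at 36 to 104 CPM against 13.3 to 20.4 CPM (log2 2.15 ± 0.34). Slc27a1, a fatty acid transporter, was the one lower gene of the set, at 10.8, 9.43, 10 and 13 CPM against 25.7, 34.5, 26.5 and 24.4 CPM (log2 -1.36 ± 0.19, edgeR adjusted p = 0.00324).

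Some genes were all but silent in KO MPP3. Fbxl13, an F-box protein gene, had 1159 counts over the KO MPP2 libraries and 0 over the KO MPP3 libraries, at least 390-fold higher if the whole KO MPP3 group is given a floor of 3 counts. Pdzph1 had 1126 counts against 0, at least 379-fold higher. Zg16, a secreted lectin gene, had 1465 counts against 2, a ratio of 739 with a 95% counting interval from 204 to 6105. Pde10a, a cyclic nucleotide phosphodiesterase, was at 2.59 to 29.3 CPM against 0 to 0.0711 CPM. Nupr1, a stress-induced nuclear protein gene, was at 5.54 to 17.2 CPM against 0.0355 to 0.512 CPM. The edgeR adjusted p of these 5 ran from 0.00922 (Zg16) to 0.0194 (Pde10a). For Fbxl13, Pdzph1, Pde10a and Nupr1 the call was lost without KO MPP2 3, KO MPP2 4 or KO MPP3 4, and for Pde10a also without KO MPP3 1 or KO MPP3 2 (highest edgeR adjusted p 0.0727), while Zg16 kept it.

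Of 29 tested megakaryocyte and platelet genes, 12 were higher in KO MPP2 by edgeR, 0 were lower and 17 did not pass. The median log2 fold change was 2.49, beside 0.02 over all genes. DESeq2 called 17 members higher and 1 lower, and limma voom 12 higher and 1 lower. Pf4, platelet factor 4, a chemokine stored in platelet granules, was at 88.3, 116, 1222 and 1165 CPM in KO MPP2 and at 2.04, 14.3, 3.47 and 2.81 CPM in KO MPP3. Mice 3 and 4 stood some way above mice 1 and 2 in MPP2, and all 4 stood above every KO MPP3 library (log2 6.85 ± 1.20, edgeR adjusted p = 0.016), although limma voom did not call it (adjusted p = 0.101). Itga2b, the integrin CD41 that binds fibrinogen on platelets, was at 66.4, 94.2, 268 and 427 CPM against 13, 26.2, 10.8 and 22.4 CPM (log2 3.57 ± 0.56, edgeR adjusted p = 0.00986). Gp5, a subunit of the platelet receptor for von Willebrand factor, was at 9.43, 38.1, 146 and 218 CPM against 1.13, 0.74, 6.17 and 1.81 CPM (log2 5.36 ± 1.06, edgeR adjusted p = 0.0218). Cavin2, a caveolar coat protein abundant in platelets, was at 29, 17.4, 72.2 and 92.5 CPM against 0, 0.398, 1.87 and 0 CPM (log2 6.48 ± 1.07, edgeR adjusted p = 0.0121).

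The promoters of these 4 genes are shown because they moved together between the populations; no binding was measured here. Each run is the 250 bases before the RefSeq start on the gene's strand, from the RefSeq table of GRCm38.p6, and capitals mark matches on either strand to AGATAA or TGATAA (the GATA motif) or to GAGGAAG (the PU.1 motif). The regions are chr5:90772185-90772434 (plus strand) for Pf4, chr11:102469884-102470133 (minus strand) for Itga2b, chr16:30310782-30311031 (minus strand) for Gp5 and chr1:51288876-51289125 (plus strand) for Cavin2.
Pf4: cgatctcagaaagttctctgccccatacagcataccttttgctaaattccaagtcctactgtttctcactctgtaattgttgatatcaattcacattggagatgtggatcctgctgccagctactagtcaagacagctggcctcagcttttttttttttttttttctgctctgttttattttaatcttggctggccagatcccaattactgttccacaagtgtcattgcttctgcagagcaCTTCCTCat
Itga2b: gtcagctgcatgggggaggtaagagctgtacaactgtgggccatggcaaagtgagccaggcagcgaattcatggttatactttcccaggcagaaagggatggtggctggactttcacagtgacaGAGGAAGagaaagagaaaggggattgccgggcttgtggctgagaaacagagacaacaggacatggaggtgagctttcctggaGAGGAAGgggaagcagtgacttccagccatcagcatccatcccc
Gp5: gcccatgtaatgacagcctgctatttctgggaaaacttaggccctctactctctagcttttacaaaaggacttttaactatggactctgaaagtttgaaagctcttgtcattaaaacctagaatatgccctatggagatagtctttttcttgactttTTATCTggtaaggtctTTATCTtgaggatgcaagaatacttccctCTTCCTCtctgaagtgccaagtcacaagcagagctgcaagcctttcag
Cavin2: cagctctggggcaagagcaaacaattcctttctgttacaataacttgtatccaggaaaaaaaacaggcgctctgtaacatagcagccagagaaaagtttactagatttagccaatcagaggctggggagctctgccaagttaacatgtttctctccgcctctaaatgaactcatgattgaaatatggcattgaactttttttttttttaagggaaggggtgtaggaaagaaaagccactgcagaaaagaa
Gp5 held 2 GATA matches, beginning 93 and 77 bases before the start, and 1 PU.1 match at 48. Itga2b held 2 PU.1 matches, at 126 and 44 bases, and Pf4 held 1, at 9 bases. Cavin2 held neither motif, which says only that these letters are not in this window. Among the 12435 tested genes with a RefSeq promoter, 10.5% held a GATA match and 11% a PU.1 match in the same length, and these motifs do not overlap. The shares were not compared between called genes and the rest, since fewer than 80% of the called genes had an entry.

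Other platelet genes behaved likewise. Treml1, a receptor of platelet granules, was at 9.3, 18.1, 68.6 and 77.9 CPM in KO MPP2 and 0.565, 0.854, 0 and 0.0355 CPM in KO MPP3 (log2 6.99 ± 1.27, edgeR adjusted p = 0.016). F2rl2, a thrombin receptor, was at 22.3, 16.7, 107 and 143 CPM against 3.87, 3.47, 3.95 and 2.49 CPM (log2 4.39 ± 0.77, edgeR adjusted p = 0.014). A further 5 called members, named after their values were seen, were Vwf, the von Willebrand factor (log2 4.08 ± 0.95), Gp9, another subunit of its receptor (2.53 ± 0.59), Rab27b, which serves granule release (3.20 ± 0.67), Cd9, a platelet tetraspanin (1.99 ± 0.37), and F2r, a thrombin receptor (2.49 ± 0.52). Tuba8, a tubulin gene outside the list, was at 38.9, 73.1, 201 and 227 CPM against 4.47, 0.0569, 8.95 and 12.7 CPM (log2 4.36 ± 0.90, edgeR adjusted p = 0.0287).

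The median log2 fold change of the platelet list was 1.44 within the earlier and 3.15 within the later numbers; the difference of the medians was not tested. Of the 28 members in those fits, 22 were above 0 within the earlier and 25 within the later numbers. Without the 3 libraries rich in immunoglobulin or ribosomal RNA, 4 of 28 members were called and the median was 2.75. Of the named members, Itga2b and Cavin2 passed in all 8 omissions. Pf4, Treml1, F2rl2, Gp5, Tuba8, Vwf, Gp9, Rab27b, Cd9 and F2r lost the call without KO MPP2 3 or KO MPP2 4, and some of them without KO MPP3 1, 2, 3 or 4 (highest edgeR adjusted p from 0.0529 for F2rl2 and Treml1 to 0.172 for Gp9). With the mouse as a block, 10 members were called, and edgeR's adjusted p values rose to 0.153 for Vwf, 0.0692 for Rab27b and 0.079 for F2r. In limma voom the calls of Gp5 (adjusted p = 0.0631), F2rl2 (0.0512) and Vwf (0.0833) were lost as well as that of Pf4.

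**Figure D2:**
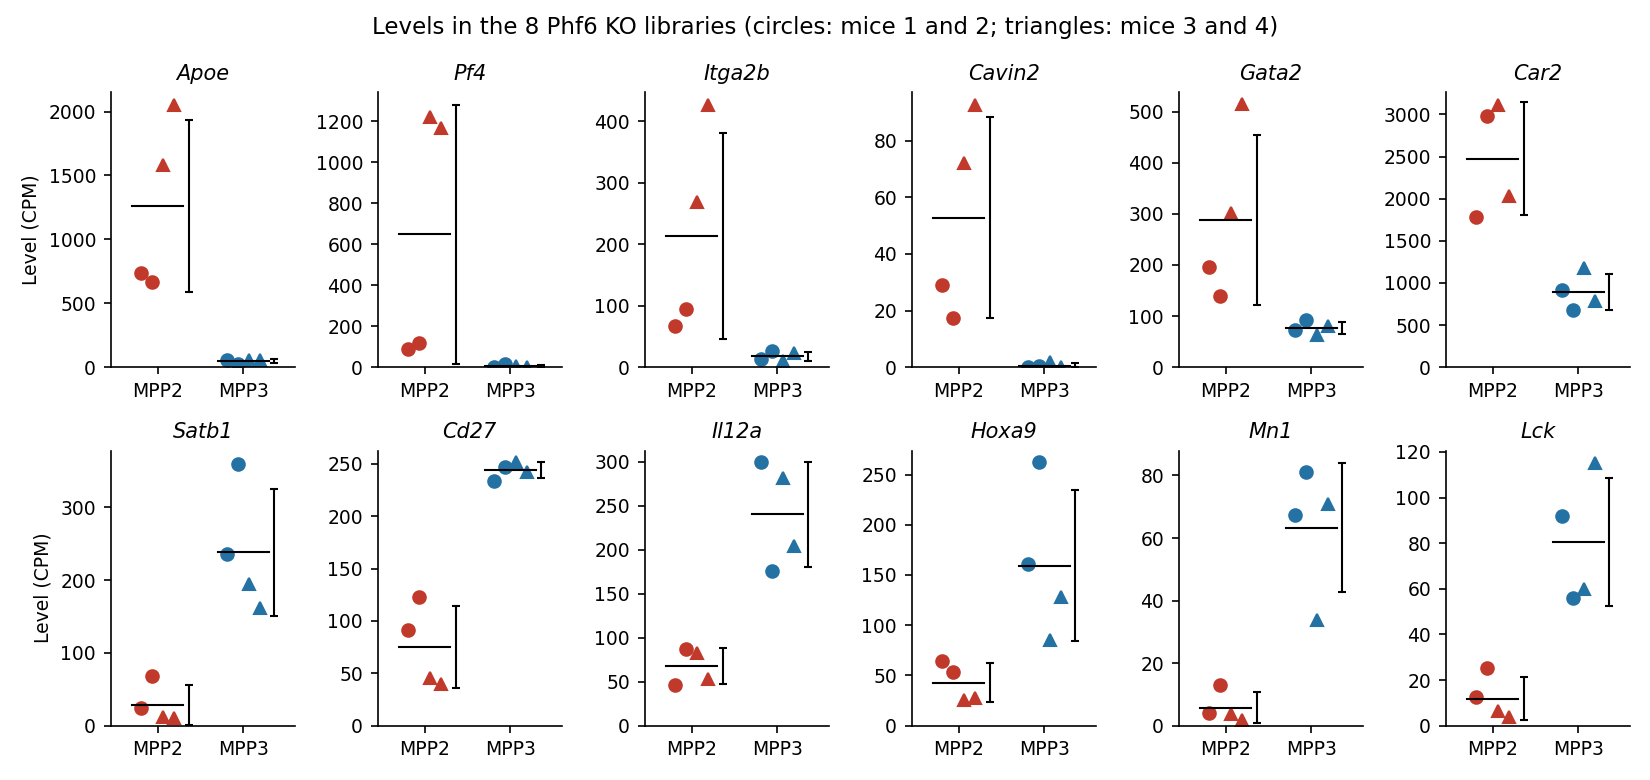
Levels (CPM, y axes, each from 0) of 12 genes in the 4 KO MPP2 (red) and 4 KO MPP3 (blue) libraries; circles are mice 1 and 2, triangles mice 3 and 4, horizontal lines group means, and bars ± SD, drawn no lower than 0. The 12 were picked from the called genes, so that their groups do not overlap is largely fixed by that choice. Over all genes tested this held for 3.59% with KO MPP2 above and 3.50% with KO MPP2 below. For Pf4 the MPP2 libraries of mice 3 and 4 (1222 and 1165 CPM) lie far above those of mice 1 and 2 (88.3 and 116 CPM).

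Of 24 tested early erythroid genes, 7 were higher in KO MPP2, 0 were lower and 17 did not pass, with a median log2 fold change of 2.73. Car2, carbonic anhydrase 2 of red cells and their precursors, was at 1785, 2984, 3106 and 2027 CPM in KO MPP2 and 910, 680, 1176 and 787 CPM in KO MPP3 (log2 1.48 ± 0.24, edgeR adjusted p = 0.0105). Hemgn, a nuclear protein of blood progenitors and red cell precursors, was at 59.9, 77.3, 103 and 96.6 CPM against 31.8, 25.4, 29.6 and 23.4 CPM (log2 1.61 ± 0.28, edgeR adjusted p = 0.014). Both were higher in MPP2 in each of the 4 mice.

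Mfsd2b, the sphingosine-1-phosphate exporter of red cells and platelets, was at 80.7, 142, 338 and 441 CPM against 0.434, 2.85, 17.6 and 0.391 CPM, with KO MPP3 3 the highest of its group (log2 5.55 ± 1.20, edgeR adjusted p = 0.0344). Slc14a1, the urea transporter of red cells, was at 89.4, 133, 416 and 549 CPM against 41.6, 32.7, 36.4 and 47.5 CPM (log2 2.91 ± 0.50, edgeR adjusted p = 0.014). Trib2, a pseudokinase, was at 46.7, 43.7, 82.6 and 81.7 CPM against 4.26, 9.11, 6.83 and 7.96 CPM (log2 3.18 ± 0.50, edgeR adjusted p = 0.00986). The other called members, named after their values were seen, were Aqp1, a red cell water channel (log2 4.33 ± 0.86, edgeR adjusted p = 0.0218), and Blvrb, biliverdin reductase B (log2 2.61 ± 0.59, edgeR adjusted p = 0.0411).

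For the erythroid list the earlier numbers gave the larger median, 4.71, beside 2.36 within the later ones, the opposite order to the platelet list; the difference between the lists was not tested. KO MPP3 3, of the later numbers, stood apart for this list, which took 0.277% of its counts and 0.0879% to 0.133% of those of the other KO MPP3 libraries. Car1, carbonic anhydrase 1 of red cells, was at 575 CPM in KO MPP3 3 and at 0 in the other 3, against 821 to 2118 CPM in KO MPP2 (log2 3.50 ± 2.21, edgeR adjusted p = 0.492), and was named after its values were seen. Leaving out KO MPP3 3 gave 133 higher and 89 lower genes over all genes tested; its part in the list's medians was not tested. Without the 3 libraries rich in immunoglobulin or ribosomal RNA, 0 of 24 were called by edgeR and the median was 2.29. With the mouse as a block, 14 were called and the median was 5.23. Trib2 passed in all 8 omissions, Car2 was lost without KO MPP2 3 (edgeR adjusted p = 0.0512), and the other 5 were lost without KO MPP2 3, KO MPP2 4 and, except for Slc14a1, at least KO MPP3 4 (highest edgeR adjusted p 0.142, for Blvrb). Mature erythroid markers took at most 0.0109% of the counts of any KO library.

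Of 20 transcription regulators of the megakaryocyte and red cell lineages, 2 were higher and 0 lower, with a median of 0.32. One of the higher genes, Gata2, a GATA factor of stem cells, megakaryocytes and mast cells, was at 196, 139, 302 and 516 CPM in KO MPP2 and 72.8, 92, 63.6 and 80.3 CPM in KO MPP3 (log2 1.90 ± 0.40, edgeR adjusted p = 0.0301). Its call was lost without any of several libraries (highest edgeR adjusted p 0.129). Gata2 also stands on the list of mast cell and basophil markers, of which it was the 1 called among 10 tested (4 by DESeq2), with 9 above 0 and a median of 1.99. That list took 0.173% to 0.184% of the counts in KO MPP2 and 0.111% to 0.148% in KO MPP3. These shares of all counts did not overlap, but the summed levels did, at 1689 to 3759 CPM in KO MPP2 and 1197 to 1708 CPM in KO MPP3. Most of each sum was Srgn, another member, at 1088 to 2259 CPM in KO MPP2 and 1071 to 1593 CPM in KO MPP3. Srgn was not called (log2 0.26 ± 0.26, edgeR adjusted p = 0.683). Gata2 is in the sums too, and little was left for the other members except in KO MPP2 1. Prss34 was at 0 in all 8 libraries. The part of such cells in the Gata2 difference was not tested.

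Stem cell genes went both ways. Of 33 tested, 3 were higher in KO MPP2, 1 was lower and the median was -0.43. Tek, the angiopoietin receptor of stem cells, was at 17.3, 13.8, 27.7 and 32.1 CPM against 1.17, 5.29, 5.58 and 5.51 CPM, with KO MPP3 1 the lowest (log2 2.37 ± 0.40, edgeR adjusted p = 0.0121). Ctnnal1, which encodes alpha-catulin, was at 18.9, 9.59, 15 and 27.6 CPM against 3.43, 6.6, 3.78 and 1.78 CPM (log2 2.19 ± 0.46, edgeR adjusted p = 0.0286). Pdzk1ip1, a small membrane protein gene, was at 104, 74.4, 101 and 83.3 CPM against 37.1, 43.4, 20.6 and 24.6 CPM (log2 1.53 ± 0.34, edgeR adjusted p = 0.0348). Hoxa9, a homeobox factor that sustains progenitors and is often raised in leukaemia, was the lower one, at 64.8, 53, 25.4 and 27.9 CPM against 161, 262, 85.7 and 128 CPM (log2 -1.90 ± 0.38, edgeR adjusted p = 0.0218). None of these 4 passed in every omission (highest edgeR adjusted p from 0.0529 for Tek to 0.121 for Pdzk1ip1); each was lost without KO MPP2 3 and without KO MPP2 4. Without the 3 rich libraries 1 of the 33 was called, and with the mouse as a block Ctnnal1 missed the threshold (edgeR adjusted p = 0.0653).

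Of 33 haematopoietic cytokine receptors, 2 were higher, Tek among them, and 1, Il21r, was lower, with a median of -0.76. Il21r, the interleukin-21 receptor of lymphocytes, was at 38, 25.5, 23.7 and 32 CPM in KO MPP2 and 64.2, 80.4, 45.8 and 57.7 CPM in KO MPP3 (log2 -1.06 ± 0.24, edgeR adjusted p = 0.0439). It was lost without any of 6 libraries (highest edgeR adjusted p 0.176).

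Of 30 tested lymphoid priming genes, 4 were lower in KO MPP2 by edgeR, 0 were higher and 26 did not pass. The median log2 fold change was -1.46. DESeq2 and limma voom each called 10 members lower and 0 higher. Satb1, a chromatin organiser needed for lymphoid development, was at 24, 68.7, 12.3 and 10.3 CPM in KO MPP2 and 236, 360, 195 and 161 CPM in KO MPP3 (log2 -3.05 ± 0.69, edgeR adjusted p = 0.0409). Cd27, a receptor of the TNF receptor family on lymphocytes and progenitors, was at 91.5, 123, 45.6 and 40.2 CPM against 234, 247, 252 and 242 CPM (log2 -1.70 ± 0.31, edgeR adjusted p = 0.016). Its KO MPP3 libraries were nearly alike, while the KO MPP2 libraries of mice 3 and 4 lay below those of mice 1 and 2. Il12a, the p35 subunit gene of interleukin-12, was at 46.7, 87.2, 82.5 and 53.4 CPM against 300, 176, 281 and 204 CPM (log2 -1.83 ± 0.33, edgeR adjusted p = 0.0156). Adgrg3, an adhesion G protein-coupled receptor, was at 176, 262, 151 and 173 CPM against 485, 429, 494 and 573 CPM (log2 -1.38 ± 0.31, edgeR adjusted p = 0.0358).

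The summed level of the lymphoid list was 1054 to 5370 CPM in KO MPP2 and 4174 to 6610 CPM in KO MPP3, overlapping through KO MPP2 1, the library richest in immunoglobulin. Its median was -1.01 within the earlier and -2.73 within the later numbers. Without the 3 rich libraries 1 of 30 was called, with a median of -1.65, and with the mouse as a block 7 were called. All 4 named members lost the call without KO MPP2 3 or KO MPP2 4, and Satb1 and Adgrg3 without most single libraries (highest edgeR adjusted p from 0.0667 for Il12a to 0.155 for Satb1).

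Lck, a kinase of the T-cell receptor, was lower in KO MPP2, at 12.5, 25.1, 6.32 and 3.71 CPM against 92, 55.9, 59.8 and 115 CPM (log2 -2.76 ± 0.60, edgeR adjusted p = 0.0325; highest without 1 library, 0.137). It was the 1 called of 11 tested T and NK cell markers. That list, Lck included, took 0.000809% to 0.00328% of the counts in KO MPP2 and 0.00638% to 0.0224% in KO MPP3. Its summed level was 27.4, 33.3, 7.81 and 9.23 CPM in KO MPP2 and 112, 68.6, 86.2 and 213 CPM in KO MPP3. Lck itself was a large part of each sum, so these shares are not separate from its own difference. Trbc1, a constant region gene of the T-cell receptor, was at 15.2 and 75.3 CPM in KO MPP3 3 and 4 and at 0 to 0.0434 CPM in the other 6 libraries (edgeR adjusted p = 0.059, and 0.0318 with the mouse as a block). Cd8a and Ncr1 were at 0 in all 8 libraries, and Cd3d, Cd3e and Cd8b1 were under 1 CPM in all 8. The part of T cells in the Lck difference was not tested. Of 12 genes of antigen presentation by MHC class II, H2-Ob, a brake on peptide loading, was the 1 called, at 74.5, 77.8, 38.4 and 39.6 CPM against 193, 215, 117 and 196 CPM (log2 -1.65 ± 0.36, edgeR adjusted p = 0.0328; highest without 1 library, 0.143).

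The other genes lower in KO MPP2 with the largest changes included several regulators. Mn1, a transcriptional cofactor and leukaemia oncogene, was at 4.13, 13.1, 3.69 and 1.96 CPM against 67.4, 81.2, 33.8 and 70.8 CPM (log2 -3.46 ± 0.62, edgeR adjusted p = 0.0153). Pou2f2, the octamer factor Oct-2 of B cells, was at 6.13, 9.06, 2.09 and 3.03 CPM against 22.1, 60.8, 25 and 25.7 CPM (log2 -2.72 ± 0.64, edgeR adjusted p = 0.0482). Nkx2-3, a homeobox factor, was at 3.68, 2.79, 1.03 and 1.39 CPM against 7.99, 27.4, 4.61 and 5.55 CPM (log2 -2.36 ± 0.56, edgeR adjusted p = 0.0497). For Pou2f2 and Nkx2-3, KO MPP3 2, the library rich in ribosomal RNA, was far the highest, and without it both calls were lost. All 3 were also lost without KO MPP2 3 or KO MPP2 4 (highest edgeR adjusted p without 1 library, 0.0727 for Mn1, 0.179 for Pou2f2 and 0.19 for Nkx2-3).

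Other genes with large decreases had varied roles. Map4k4, a kinase, was at 5.88 to 19.5 CPM in KO MPP2 against 39, 143, 27.8 and 27.7 CPM in KO MPP3 (log2 -2.31 ± 0.50), again with KO MPP3 2 highest and the call lost without it. Rasa4, a Ras GTPase activator, was at 5.1, 39.4, 9.16 and 10.3 CPM against 62.5 to 93.1 CPM (log2 -2.25 ± 0.50). Fgd2, an exchange factor of Cdc42, was at 5.81 to 24.4 CPM against 54.9 to 76.9 CPM (log2 -2.20 ± 0.48), and Arhgap32, an activator of GTPases, at 5.11 to 8.37 CPM against 11.8 to 59.1 CPM (log2 -2.18 ± 0.47). Sh2d5, an adaptor with an SH2 domain, was at 17.1 to 34.3 CPM against 73.3 to 173 CPM (log2 -2.16 ± 0.38). Als2cl (log2 -2.64 ± 0.54), Msrb3, a methionine sulfoxide reductase (-2.10 ± 0.43), Ppp1r18, a phosphatase subunit gene (-2.02 ± 0.42), and Ypel1 (-1.89 ± 0.36) were lower as well. The edgeR adjusted p of these 9 genes ran from 0.014 for Sh2d5 to 0.0344 for Rasa4, and none passed in every omission (highest from 0.0628 for Sh2d5 to 0.146 for Rasa4).

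**Figure D3:**
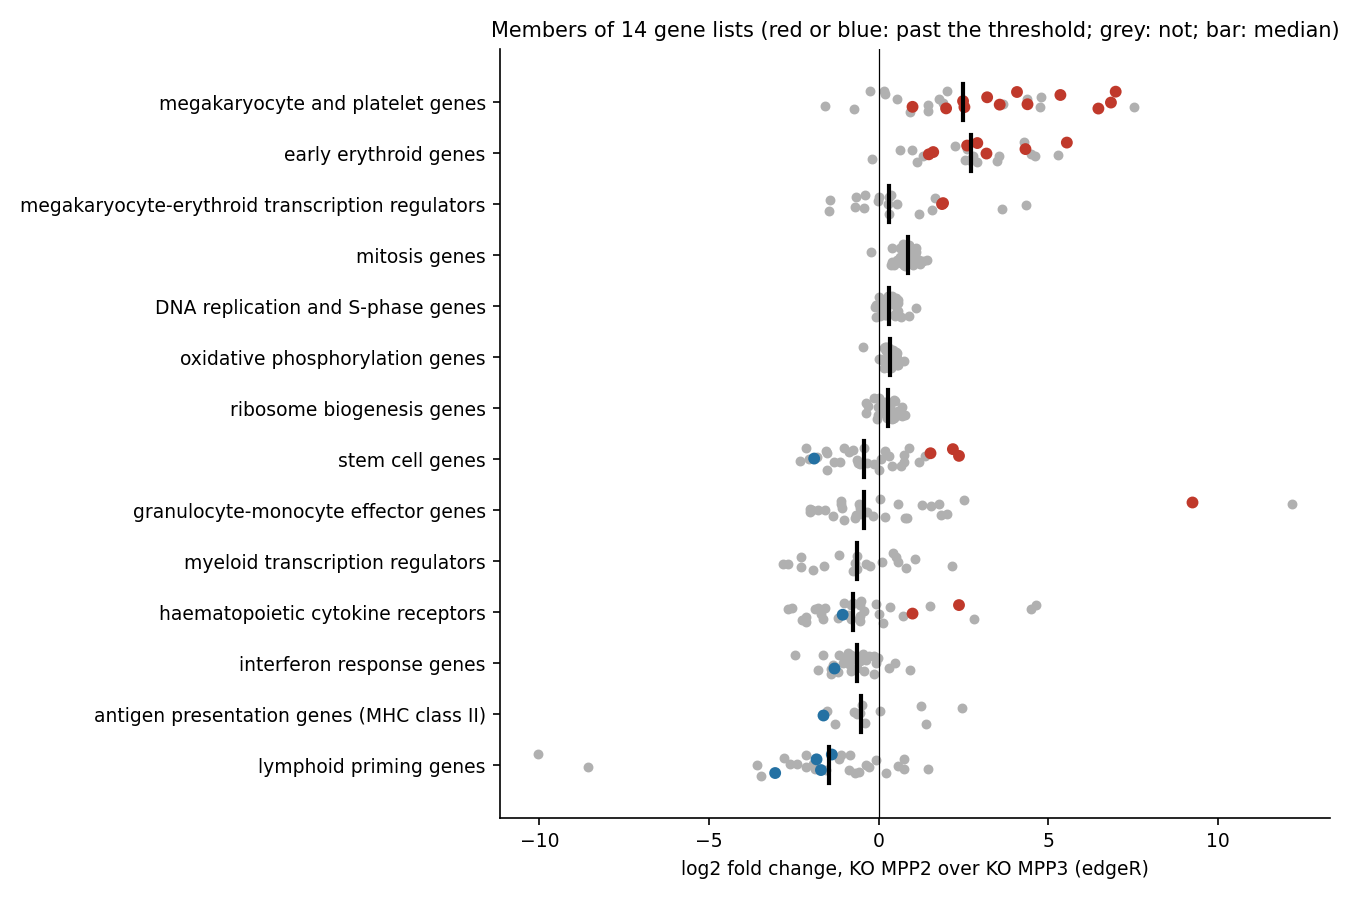
Fold change of KO MPP2 over KO MPP3 (log2, x axis) for each tested member of 14 gene lists (rows); red and blue points passed the threshold with KO MPP2 higher or lower, grey points did not, and black bars are list medians. The platelet and early erythroid lists have medians of 2.49 and 2.73 and the lymphoid list -1.46, while mitosis genes lie close together around 0.86 with no call.

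Granulocyte and monocyte genes, of the lineage towards which MPP3 are biased, gave 1 call in edgeR. Of 30 effector genes that was Alox5, which was higher in KO MPP2; 2 others were called lower by DESeq2 and 4 by limma voom. Of 20 myeloid transcription regulators 0 were called by edgeR (3 by DESeq2, 4 by limma voom), with a median of -0.64. They took 0.0337% to 0.039% of the counts in KO MPP2 and 0.049% to 0.0918% in KO MPP3. These shares of all counts did not overlap, but the summed levels did, at 344 to 689 CPM in KO MPP2 and 527 to 871 CPM in KO MPP3. Mpo, the peroxidase of granulocyte precursors, was at 1799, 2317, 1371 and 32 CPM in KO MPP2 and at 1411, 253, 3301 and 3015 CPM in KO MPP3, so both groups spread widely and overlapped (log2 -0.53 ± 1.27, edgeR adjusted p = 0.885). Its fold change was 1.33 within the earlier and -2.20 within the later numbers. Spi1, which encodes PU.1, was at 110, 111, 57.1 and 56.6 CPM against 172, 83.9, 217 and 279 CPM (log2 -1.17 ± 0.32, edgeR adjusted p = 0.0898). It passed in DESeq2 (adjusted p = 0.0121), in limma voom (0.003) and, by edgeR, without the 3 rich libraries (0.0392). Plac8, a gene of early myeloid and lymphoid progenitors, was at 1035, 1164, 563 and 368 CPM against 1577, 1259, 2032 and 1770 CPM with no overlap (log2 -1.08 ± 0.45, edgeR adjusted p = 0.277; limma voom, 0.0115).

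The effector list had a median of 0.79 within the earlier and -1.16 within the later numbers, a difference that was not tested. Neutrophil granule markers, a separate list of 15 genes, had a median of 6.99 with 0 called by edgeR, and 7.14 and 0.81 in the earlier and later numbers. Ngp, neutrophilic granule protein, was at 3396 CPM in KO MPP2 1 and at 0 to 2.63 CPM in the other 7 libraries. Without KO mouse 1 the list's median was -1.50.

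Alox5, the 5-lipoxygenase that starts leukotriene synthesis, was at 15.2, 4.89, 18.8 and 26.1 CPM in KO MPP2 and at 0, 0.114, 0 and 0 CPM in KO MPP3. It had 1621 counts against 2, a ratio of 817 with a 95% counting interval from 226 to 6755 (edgeR adjusted p = 0.0357). The call was lost without any of 6 libraries (highest edgeR adjusted p 0.108). In WT mice it was at 0, 0.49, 4.63 and 2.52 CPM in MPP2 and 0.978, 1.43, 11.4 and 3.47 CPM in MPP3, so the groups overlapped.

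The growth lists had medians above 0 and no call in edgeR. Over all genes tested 0.526% were called higher, so no call in lists of this size is near that share. Of 35 mitosis genes 34 were above 0 and 0 were called by edgeR (7 by DESeq2, 4 by limma voom), with a median of 0.86. Cdk1, the kinase that drives entry into mitosis, was at 300, 457, 326 and 323 CPM in KO MPP2 and 204, 73.4, 307 and 188 CPM in KO MPP3 (log2 0.86 ± 0.32, edgeR adjusted p = 0.224). Top2a, the topoisomerase of dividing cells, was at 524, 910, 444 and 491 CPM against 408, 527, 443 and 235 CPM (log2 0.55 ± 0.32, edgeR adjusted p = 0.434). Medians were 0.31 for 35 replication and S-phase genes, 0.33 for 44 genes of oxidative phosphorylation and 0.27 for 40 of ribosome biogenesis, with 0 calls by edgeR in each (0, 1 and 0 by DESeq2; 0, 3 and 2 by limma voom). The mitosis median was 1.40 within the earlier and 0.40 within the later numbers. The KO MPP2 libraries lay wholly above those of KO MPP3 for 11 of 35 mitosis and 11 of 44 oxidative phosphorylation genes. This held for 0 of the replication and 0 of the ribosome biogenesis genes, and for 3.59% of all genes tested.

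Interferon response genes lay lower in KO MPP2 for 31 of 34 members, with a median of -0.65. Dhx58, which encodes the RNA sensor LGP2, was the 1 called, at 24.9, 38.1, 16.8 and 24.7 CPM against 59, 73.6, 49.5 and 76.2 CPM (log2 -1.31 ± 0.28, edgeR adjusted p = 0.0324; highest without 1 library, 0.137). With the mouse as a block 5 members were called, all lower. DESeq2 called 6 members lower and limma voom 10, while edgeR called 0 without the 3 rich libraries. Of 22 glycolysis genes, Pdk1, a kinase that restrains pyruvate dehydrogenase, was the 1 called, at 74.8, 60.4, 50.6 and 34.8 CPM against 121, 191, 91 and 99.4 CPM (log2 -1.19 ± 0.27, edgeR adjusted p = 0.0453; highest without 1 library, 0.161).

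Within the earlier numbers alone 0 of 20102 genes passed in edgeR (2840 at an unadjusted p under 0.05), while within the later numbers 119 were higher and 287 lower in KO MPP2 (2.02%). With the title number as a term in the fit, 244 were higher and 291 lower (2.54%). All 187 genes had the same direction in both groups of mice, which their choice partly fixes, and 136 had the larger fold change within the later numbers. Of all genes tested, 20092 were also in these fits. Of those, 11338 kept their direction in both groups of mice and 8393 had the larger fold change within the later numbers. The difference between the groups of mice itself passed for 2 genes (0.00995%). Sytl1, which serves vesicle release, was at 6.13, 9.67, 0 and 0.0357 CPM in KO MPP2 and 25.2, 28.3, 12.5 and 31.5 CPM in KO MPP3. Laptm4b, a lysosomal membrane protein gene, was at 21.2, 15.7, 0.816 and 0.856 CPM against 36, 24.8, 37.1 and 39.8 CPM. Their fold changes were less negative in the earlier than in the later numbers, by 8.22 and 4.85 on the log2 scale (edgeR adjusted p = 0.0128 for each), and in both the KO MPP2 libraries of mice 3 and 4 held the low values.

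**Figure D4:**
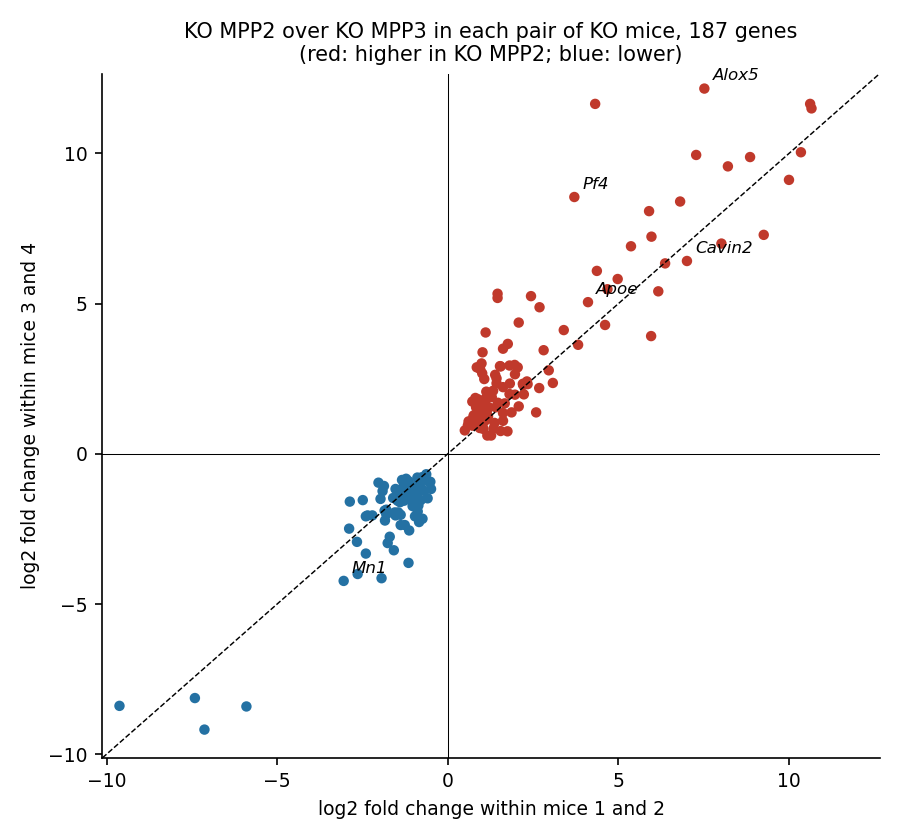
Fold change of KO MPP2 over KO MPP3 (log2) of the 187 called genes within mice 1 and 2 (x axis) and within mice 3 and 4 (y axis); 1 point per gene, red where higher and blue where lower in KO MPP2, with a dashed line of equal values. All points have the same sign on both axes, which their choice partly fixes, and 136 are farther from 0 on the y axis. Over all 20092 genes tested in both ways, 11338 kept their direction on both axes and 8393 were farther from 0 on the y axis.

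The same contrast in WT mice, which shares no library with that in KO mice, gave 207 genes higher in MPP2 (0.981%) and 46 lower (0.218%). Of the 187 genes called in KO mice, 185 had the same sign in WT mice, and 79 also passed there, 62 higher and 17 lower; over all genes tested the signs were shared for 13881 of 21100. Across the 187 genes the fold changes in KO and WT had a Pearson r of 0.86, a description over genes that are not independent, beside 0.29 over all genes; it was 0.71 within the higher and 0.69 within the lower genes, which were chosen for opposite signs. The exceptions in sign were Alox5, at 9.23 in KO and -1.18 in WT, and Tut7, at 0.76 and -0.03. The platelet list had a median of 2.25 in WT with 11 of 29 higher, the erythroid list 4.33 with 8 of 24 higher, and the lymphoid list -1.15 with 2 of 30 lower. Of the mitosis genes 12 of 35 passed in WT, where Cdk1 did too (log2 1.41, edgeR adjusted p = 0.0365), and of the oxidative phosphorylation genes 13 of 44.

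The difference between the contrasts was called for 0 of 21100 genes in edgeR (943 at an unadjusted p under 0.05), 15 in DESeq2 and 0 in limma voom. Among the 187 genes called, that of Alox5 was 10.41 ± 2.43 on the log2 scale, with an edgeR unadjusted p of 0.000403 and an adjusted p of 1. Ngp, high in KO MPP2 1 alone among the KO libraries, had 16.34 ± 4.59 (edgeR adjusted p = 1). Champ1, a chromosome alignment protein gene, was at 43.1 to 57.3 CPM in KO MPP2 and 33.6 to 39.6 CPM in KO MPP3, and at 22.6 to 39.3 CPM in WT MPP2 and 41.9 to 71.6 CPM in WT MPP3 (difference 1.26 ± 0.33, edgeR adjusted p = 1). Mkrn1, a ubiquitin ligase gene, was at 75.2 to 89.3 CPM against 56 to 66.6 CPM in KO and 61.7 to 75.6 CPM against 74.3 to 105 CPM in WT (difference 0.74 ± 0.21, edgeR adjusted p = 1).

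**Figure D5:**
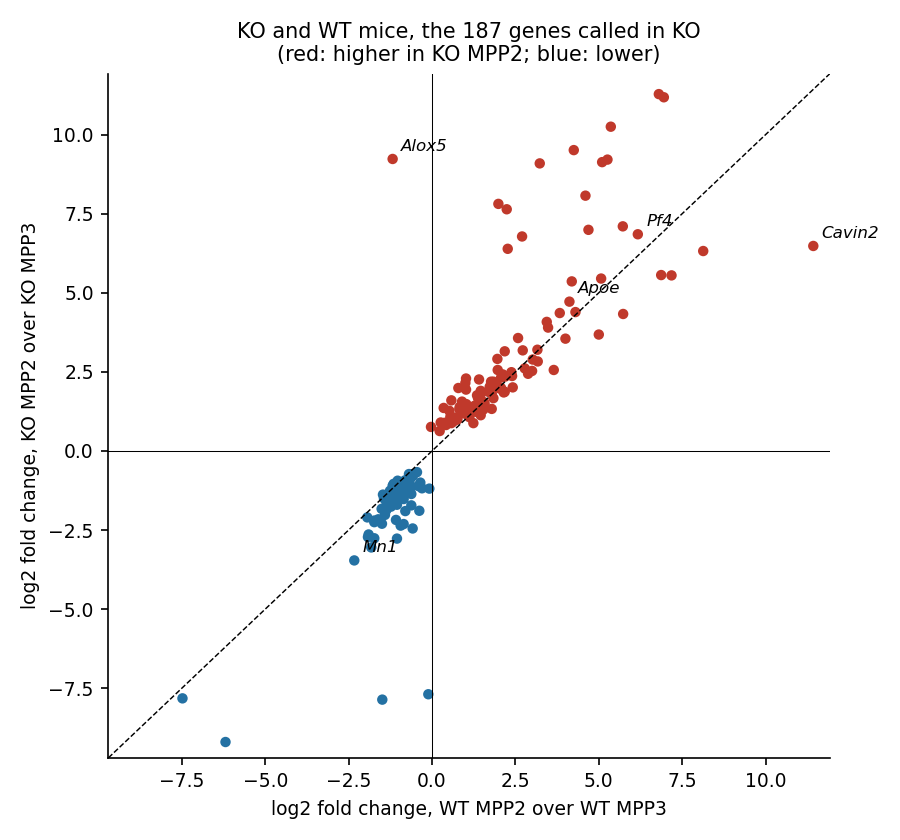
Fold change of MPP2 over MPP3 (log2) in WT mice (x axis) and in KO mice (y axis) for the 187 genes called in KO mice; 1 point per gene, red where higher and blue where lower in KO MPP2, with a dashed line of equal values. Of the points, 185 have the same sign in both, and Alox5, at -1.18 and 9.23, and Tut7, at -0.03 and 0.76, lie in the upper left.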

How the data were processed

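RNA was measured in 21 libraries (Nextera XT, per the labels' protocols). The authors deposited 1 table of whole-number read counts for each gene and library. Reads were aligned to mm10 by STAR, per the submitters' processing notes. What counted them, with which strand setting and annotation, is not given in the sources used here. Of 54446 gene IDs, 54409 matched GENCODE M21, which gave coordinates in mm10, and 0 columns belonged to other samples. Reads shared between overlapping or near-identical genes could not be assigned anew.

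The test was edgeR 4.0.16's robust quasi-likelihood F test with TMM factors (R 4.3.3), in 1 fit of all 21 libraries in 6 groups, after filterByExpr with a minimum count of 10, which left 21100 genes. The SE is the size of the log2 fold change divided by the root of F. Title numbers were tested in the 16 MPP libraries in 8 groups, over 20102 genes. DESeq2 1.42.0 and limma 3.58.1 (voom) served as alternatives, and the fit was tested on simulated counts. There it called 14.9% of the genes changed by 1 on the log2 scale and 85.1% of those changed by 2. A gene without a call may thus still differ by the smaller amount. Nothing says whether reads are of separate molecules.

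Libraries of the same genotype and number were taken to come from 1 mouse, since their titles carry consecutive numbers. Deviations from group means of same-numbered KO MPP2 and KO MPP3 libraries correlated at 0.405, 0.0537, 0.183 and 0.185, and those of WT at 0.105, 0.136, 0.1 and 0.0654. Pairs of unlike number ran from -0.319 to 0.136 in KO and from -0.104 to 0.0691 in WT, so like and unlike pairs overlapped. The highest unlike KO pairs joined mice 3 and 4 (0.136 and 0.132), so a shared mouse and a shared run of title numbers are not told apart. The block has 1 term per mouse.

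The members and the 26 gene lists were chosen with earlier results of these data known. Genes were named by rule: the 15 largest changes in each direction past the threshold, without overlap and with a mean of at least 10 CPM; up to 4 called members of each list; for lists with under 2 calls, the members of highest mean; the smallest p of each difference; and Phf6, Sva and the sort genes. Not all of these are printed, and some genes are not reported here. Grb10, Tgfbr3, Ptgs1, Aqp9, Slc27a1, Vwf, Gp9, Rab27b, Cd9, F2r, Aqp1, Blvrb, Car1 and Tut7 were named after their values were seen. Promoters are those of RefSeq, for 12435 of 21097 symbols.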

Additional observations from a re-analysis of the deposited data

Results flagged for a closer look

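In a group of 4 libraries, 1 library lay apart from the other 3 by Dixon's criterion in 20 of 158 groups checked. The groups were of genes named above, without Srgn, and of the immunoglobulin and ribosomal RNA shares. Chance gives about 1 in 20 for independent normal values, which these are not, so the count cannot be set against that rate. Among genes called, KO MPP3 2 was the high library for Pf4 (14.3 CPM), Pou2f2 (60.8 CPM), Map4k4 (143 CPM), Nkx2-3 (27.4 CPM) and Alox5 (0.114 CPM), as it was for Kit (509 CPM), which was not called. KO MPP3 3 was the high one for Mfsd2b (17.6 CPM), Aqp1 (11.2 CPM), Blvrb (113 CPM) and Zg16 (0.0694 CPM), and KO MPP3 4 for Gp9 (15.8 CPM). The flagged values of Alox5 and Zg16 lay below the level of 3 counts in their libraries (0.171 and 0.104 CPM). KO MPP3 1 was low for Tek (1.17 CPM). KO MPP2 2 was high for Rasa4 (39.4 CPM), Ypel1 (11.9 CPM) and Cdk1 (457 CPM), and KO MPP2 1 for Ly6a (1429 CPM) and Ngp (3396 CPM). The immunoglobulin share stood apart in KO MPP2 1 (48%) and KO MPP3 1 (26.8%), and the ribosomal RNA share in KO MPP3 2 (21.9%). The fold change of KO MPP2 over KO MPP3 differed between mice 1 and 2 and mice 3 and 4 for Sytl1, by 8.22 on the log2 scale, and for Laptm4b, by 4.85.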

How the results depend on the processing

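With the mouse as a replicate block in the fit of all libraries, 191 genes were higher and 211 lower in KO MPP2, and with the block in the 8 libraries alone 1 and 0. Of the genes printed here, the block in all libraries ended the calls of Ctnnal1, Vwf, Rab27b and F2r and no other, and limma voom those of Pf4, Gp5, F2rl2, Vwf and Nkx2-3. Higher and lower genes numbered 399 and 459 in DESeq2, 419 and 512 in limma voom, 6 and 0 with only the libraries compared, and 244 and 291 with the title number as a term. Within the earlier numbers they were 0 and 0, and within the later ones 287 were lower. Without KO mouse 1 they were 71 and 24, and without the 3 rich libraries (KO MPP2 1, KO MPP3 1 and KO MPP3 2) 32 and 26, both chosen after seeing the data. Leaving out 1 library gave 11 to 133 higher and 1 to 110 lower. Median-ratio size factors, a 1 CPM filter, no filter and leaving out the male mice moved both counts by no more than 1.5 times. The share of calls that were higher was 59.4%, beside 46.5% in DESeq2, 45.0% in limma voom and 47.5% with the block in all libraries. The difference between KO and WT was called for 15 genes in DESeq2 and for 0 in each other setting run. The title number difference was called for 0 genes in limma voom and 413 with no filter.

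Values that turned sign were all of genes not called. Kit, at -0.09, was at 0.43 in limma voom, 0.10 and 0.13 with the block, 0.44 within the later numbers, from -0.29 to 0.56 without 1 library (0.03 without KO MPP2 4, 0.56 without KO MPP3 2), 0.57 without the 3 libraries and 0.51 without the male mice. Ly6a, at 0.65, was at -1.83 in limma voom, -1.10 and -1.18 with the block, -0.09 with the title number as a term, -2.59 within the later numbers, from -2.09 (without KO MPP2 1) to 1.90 without 1 library, -0.85 without KO mouse 1 and -0.20 without the 3 libraries. Phf6 was at -0.15 within the later numbers and -0.16 without the 3 libraries, Sva at 0.14 without them, and within the earlier numbers Cd48 was at 0.21 and Mpo at 1.33. The causes were not tested. Of 1693 values of 77 named genes under an alternative, 1126 kept direction and side of the threshold, 527 lost the call, 19 gained one and 21 turned sign. Srgn is not among the 77.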

Other observations

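Among the immunoglobulin counts, the same variable segments led in KO MPP2 1 and KO MPP3 1, the libraries of KO mouse 1. Ighv5-4 took 89% of the heavy chain variable counts of KO MPP2 1 (1054937 counts) and 86.2% of those of KO MPP3 1 (514729 counts), and Igkv4-59 took 48.6% and 38% of the kappa variable counts. In KO MPP2 2 the leading segments were others, Ighv1-78 with 61.8% and Igkv1-135 with 41%.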
